A study of Homo sapiens with 6 samples.

Results

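The annexins are calcium-dependent proteins that bind acidic phospholipids on the inner face of cell membranes, and several of them work as complexes with small EF-hand proteins of the S100 family. The genes described are 7 annexins (ANXA1, ANXA2, ANXA4, ANXA5, ANXA6, ANXA7 and ANXA11) and 3 S100 genes (S100A10, S100A4 and S100A6), 10 of the 33095 genes listed, each found by its symbol in both tables. They were selected on their fold changes and adjusted p-values in both comparisons, which were known when the list was drawn up, so the calls given for them are a description and no independent evidence. The cells are MM.1S, an established human line of multiple myeloma, a cancer of plasma cells. They were transduced with lentivirus carrying a scramble control hairpin, IRF3 shRNA 1 or IRF3 shRNA 2, with 2 libraries of poly(A) RNA an arm and 6 in all; IRF3 is a transcription factor of innate immunity. All arms thus share lentiviral transduction and hairpin expression, and nothing in the labels tells if the 2 libraries of an arm are separate cultures, so that p-values may measure technical spread only.

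Calcium opens the annexin core to phosphatidylserine and similar lipids, and in this way annexins link membranes to each other, to the actin cortex and to vesicles in transit. S100A10 differs from other S100 proteins in that it needs no calcium, and a dimer of it joins a pair of ANXA2 molecules into a heterotetramer at the plasma membrane. Plasma cells are secretory cells with a large membrane traffic, and ANXA2 is known in myeloma as a surface receptor of plasminogen and an adhesion molecule in bone marrow.

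The values are those of the authors' deposited tables, 1 for each hairpin against scramble, with a mean normalised read count over all libraries, a log2 fold change and its standard error (SE). A gene was called where the adjusted p of the table was below 0.05. Calls with a log2 fold change smaller in size than 0.5 all end under the alternative that asks for that size. The tables used here give no value of a single library; levels in an arm were reconstructed from the mean and both fold changes and are named as reconstructed, with a 95% interval. The depth of each library is unknown. IRF3 itself stood at -1.53 ± 0.10 (SE, log2) with shRNA 1 and at -0.18 ± 0.10 with shRNA 2 per the authors' deposited tables, being called in the first of them alone. The second set is therefore named as the libraries labelled shRNA 2. The 8 plasma cell markers examined had means of 1665 to 25183, against 4.48 to 57.1 for the T cell markers found (3 of 4 listed). The range was 1.92 to 33.2 for the stromal markers found (3 of 5) and 3.27 to 17.1 for the epithelial ones (4 of 5). Myeloid markers ranged from 5.10 to 494, the highest being CD68. A smaller number of cells and less RNA per cell cannot be told apart in such bulk libraries.

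The 3 members that were lowest relative to scramble in the libraries labelled shRNA 2 among those called, ANXA2, S100A10 and ANXA5, are shown by the 250 bases before their RefSeq start, 5′ to 3′ on the strand of the gene (GRCh38.p14). ANXA1 is shown for contrast, because its window is the single one among the members without a CpG. Capitals mark every match, on either strand, to the GC box GGGCGG, the AP-1 site TGANTCA, the cAMP response element TGACGTCA or the interferon regulatory factor core AANNGAAA. Matches that overlap each other, as the GC boxes of ANXA2 do, run together. The windows lie at chr15:60397987-60398236 (ANXA2, minus strand), chr1:151993860-151994109 (S100A10, minus), chr4:121696981-121697230 (ANXA5, minus) and chr9:73151615-73151864 (ANXA1, plus).
ANXA2: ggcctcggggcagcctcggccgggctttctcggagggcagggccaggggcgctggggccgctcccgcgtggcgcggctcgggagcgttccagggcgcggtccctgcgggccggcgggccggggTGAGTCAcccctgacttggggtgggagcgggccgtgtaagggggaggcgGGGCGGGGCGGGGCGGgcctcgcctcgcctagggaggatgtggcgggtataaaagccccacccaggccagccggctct
S100A10: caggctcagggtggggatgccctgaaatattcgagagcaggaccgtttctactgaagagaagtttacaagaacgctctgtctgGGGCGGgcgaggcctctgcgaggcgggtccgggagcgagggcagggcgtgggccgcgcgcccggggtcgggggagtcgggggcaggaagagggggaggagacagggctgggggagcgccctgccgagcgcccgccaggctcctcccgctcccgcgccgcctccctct
ANXA5: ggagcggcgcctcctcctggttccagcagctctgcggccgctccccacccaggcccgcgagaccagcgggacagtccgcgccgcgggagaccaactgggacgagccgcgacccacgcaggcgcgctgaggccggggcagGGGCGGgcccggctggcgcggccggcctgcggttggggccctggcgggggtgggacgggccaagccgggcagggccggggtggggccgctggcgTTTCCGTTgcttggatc
ANXA1: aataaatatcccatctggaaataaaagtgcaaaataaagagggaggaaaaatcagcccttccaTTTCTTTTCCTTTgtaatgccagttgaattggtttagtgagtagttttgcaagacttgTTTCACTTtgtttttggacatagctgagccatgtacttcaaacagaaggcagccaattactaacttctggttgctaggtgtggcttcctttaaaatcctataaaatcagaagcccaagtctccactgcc

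The ANXA2 window held 1 AP-1 match, TGAGTCA, 127 bases before the start, and 3 overlapping GC boxes 68 to 78 bases before it. The 50 bases after this start were not found in an annotated ANXA2 transcript, unlike those of S100A10, ANXA5 and ANXA1 in theirs. S100A10 had 1 GC box, and ANXA5 had 1 GC box and 1 interferon regulatory factor core. ANXA1 had 3 such cores on the reverse strand and none of the other motifs. GC content was 78.0% for ANXA2, 78.8% for ANXA5, 71.2% for S100A10 and 38.4% for ANXA1, against a median of 58.0% over the 35116 promoter windows of RefSeq. All 10 members matched that table, through 14 windows. The GC box occurred in 9 of these 14 windows (42.6% of all windows), the factor core in 3 (20.3%), the AP-1 site in 1 (6.57%) and the cAMP response element in 0 (1.65%). A match describes letters only.

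Transcript levels of the members spanned a wide range. Divided by the length of the longest coding transcript, ANXA6 had 6223 mean normalised counts per kilobase, ANXA2 2555, ANXA5 1246, ANXA11 1152 and ANXA7 980. ANXA4 followed with 198 counts per kilobase, S100A10 with 154 and S100A6 with 60.1, whereas ANXA1 had 8.38. Ranked among 11339 coding genes whose mean was at least 50, ANXA6 stood at percentile 98.5 and ANXA2 at 95.9 of this level, and S100A10 at 37.5. ANXA6 and ANXA2 led with the median transcript length as well (17483 and 6401 counts per kilobase), but ANXA11 then came before ANXA5 (3171 against 1610). The S100A4 mean of 0.596 normalised counts leaves it at the edge of detection, and its fold changes, with SEs of 4.84 and 4.83 in the authors' deposited tables, cannot be read.

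Of the 8 members with an adjusted p for shRNA 1, 4 were called higher and 0 lower in the authors' deposited table. Over all 14488 genes with an adjusted p the shares were 9.8% higher and 14.8% lower, 24.6% in all. The median log2 fold change of the 8 was 0.36, against -0.03 over all genes tested. In the libraries labelled shRNA 2, 1 of 9 members with an adjusted p was called higher and 4 lower, against 10.9% higher, 18.1% lower and 29% in all of 17054 genes, from the authors' deposited table. The median of the 9 was -0.45, against 0.00 over all genes tested. The comparisons share the scramble libraries. Markers of plasma cells, the type these cells belong to, moved as well: of 8 tested, 1 was called higher and 5 lower with shRNA 1, and 1 higher and 6 lower in the libraries labelled shRNA 2, in the authors' deposited tables. Their summed reconstructed means were 104419 normalised counts in scramble, 79484 with shRNA 1 and 64888 in the libraries labelled shRNA 2. IRF4, a transcription factor that plasma cells depend on, stood at -1.21 ± 0.08 and -1.87 ± 0.08 (SE, log2), per the authors' deposited tables. XBP1, which drives the secretory programme, stood at -0.83 ± 0.09 and -1.15 ± 0.09, and TNFRSF17, the surface receptor BCMA, at -0.31 ± 0.10 and -1.71 ± 0.10, per the authors' deposited tables. SDC1 was the marker called higher with shRNA 1 and CD38 the one called higher in the other arm. The part of these markers in the members' results was not tested.

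**Figure D1:**
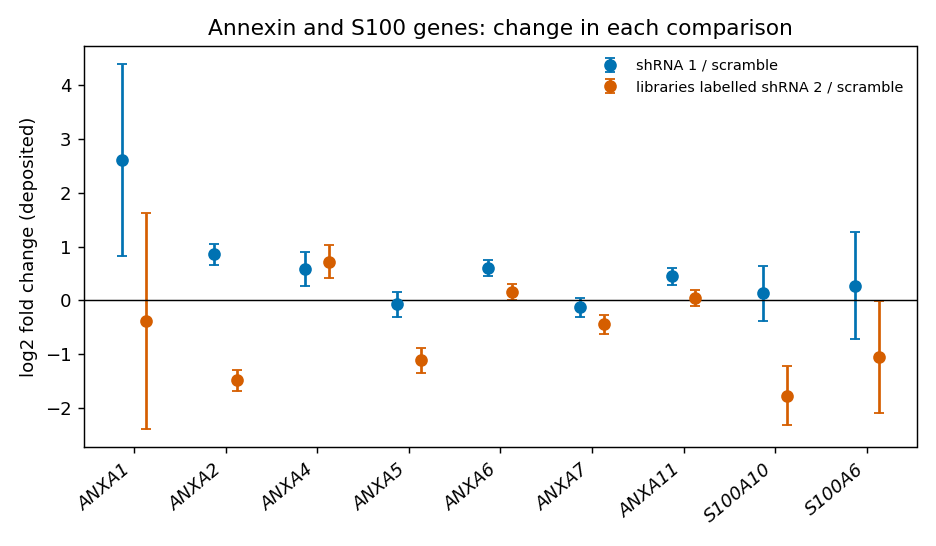
Log2 fold change against scramble for 9 members (y axis, as deposited), with shRNA 1 in blue and the libraries labelled shRNA 2 in orange; bars are 95% intervals, and S100A4 is left out for its low mean. ANXA2 lies above 0 with shRNA 1 and below 0 in the libraries labelled shRNA 2, while ANXA4 lies above 0 in both.

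ANXA2 (ENSG00000182718, chromosome 15, 60347134 to 60402883, minus strand, GRCh38) was the 1 member called in opposite directions. Its reconstructed mean was 4063 normalised counts in scramble (95% interval 3700 to 4461), 7332 with shRNA 1 (6686 to 8042) and 1452 in the libraries labelled shRNA 2 (1316 to 1601). The 3 intervals do not overlap, with shRNA 1 highest and the libraries labelled shRNA 2 lowest. For shRNA 1 the authors' deposited table puts ANXA2 at 0.85 ± 0.10 (SE, log2), a ratio of 1.80, and DESeq2 adjusted its p to 1.14e-16. For shRNA 2 the authors' deposited table puts it at -1.48 ± 0.10 (SE, log2), a ratio of 0.357, and DESeq2 adjusted its p to 1.1e-47. Between the hairpin arms the log2 difference, shRNA 2 minus shRNA 1, was -2.34 ± 0.10 (SE), a ratio of 0.198. Genes called higher with shRNA 1 and lower in the libraries labelled shRNA 2 made up 1.5% of the 14488 genes tested in both. The processed pseudogenes ANXA2P1, ANXA2P2 and ANXA2P3, whose reads could be confused with those of ANXA2, had means of 0.312, 0.343 and 1.43 normalised counts.

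S100A10 (ENSG00000197747, chromosome 1, 151982915 to 151994390, minus strand), the partner of ANXA2 in the heterotetramer, was lower in the libraries labelled shRNA 2 and was not called with shRNA 1. Its reconstructed mean was 233 normalised counts in scramble (181 to 299), 255 with shRNA 1 (199 to 327) and 68.1 in the libraries labelled shRNA 2 (51.1 to 90.8). Scramble and shRNA 1 overlap, and the third arm lies below both. On the log2 scale S100A10 stood at 0.13 ± 0.26 (SE) with shRNA 1 (DESeq2 adjusted p of 0.793) and -1.77 ± 0.28 with shRNA 2 (4.65e-09), per the authors' deposited tables. With shRNA 1 the ratio to scramble had a 95% interval of 0.768 to 1.56, so a rise of S100A10 such as the 1.80 of ANXA2 lies outside it. With shRNA 1 the log2 fold change of ANXA2 exceeded that of S100A10 by 0.72 ± 0.28 (SE; 95% interval 0.18 to 1.27). In the libraries labelled shRNA 2 the gap was 0.29 ± 0.30 (SE; -0.29 to 0.87), so a difference between the subunits was not detectable there. Both SEs of the gap treat the genes as independent, although they were measured in the same libraries. Per kilobase of the longest coding transcript, the reconstructed ANXA2 level was 12.5 times that of S100A10 in scramble, 20.6 times with shRNA 1 and 15.3 times in the libraries labelled shRNA 2. These multiples are of RNA and depend on the transcript lengths used.

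ANXA5 (ENSG00000164111, chromosome 4, 121667955 to 121697113, minus strand), whose protein binds exposed phosphatidylserine and serves as a stain for apoptotic cells, was lower only in the libraries labelled shRNA 2. The reconstructed means were 2731 normalised counts in scramble (2441 to 3056), 2595 with shRNA 1 (2319 to 2904) and 1259 in the libraries labelled shRNA 2 (1121 to 1414). Scramble and shRNA 1 overlap, and the third interval is apart from both. In the authors' deposited tables ANXA5 had log2 fold changes of -0.07 ± 0.12 (SE) and -1.12 ± 0.12, with DESeq2 adjusted p-values of 0.731 and 3.21e-19. The difference between the hairpin arms was -1.04 ± 0.12 (SE) on the log2 scale.

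ANXA7 (chromosome 10, 73375101 to 73414076, minus strand), also called synexin and known from the fusion of secretory granules, moved least among the members called lower. Its reconstructed means were 2723 normalised counts in scramble (2493 to 2975), 2485 with shRNA 1 (2274 to 2716) and 1998 in the libraries labelled shRNA 2 (1827 to 2186), the last below the others without overlap. The authors' deposited tables give log2 fold changes of -0.13 ± 0.09 (SE; DESeq2 adjusted p of 0.335) and -0.45 ± 0.09 (1.43e-05). The antisense gene AL512656.1 shares 105 exonic bases with ANXA7 and had a mean of 0.881 normalised counts.

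**Figure D2:**
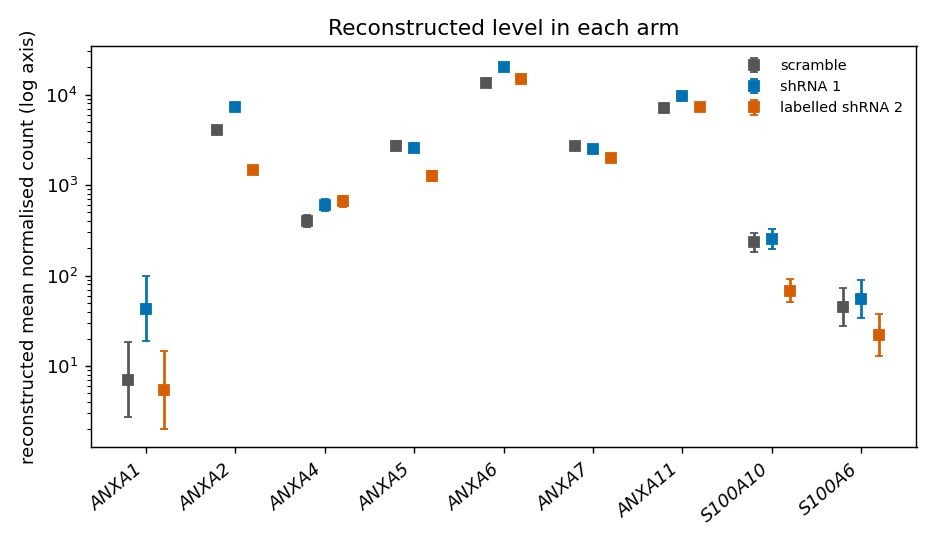
Reconstructed mean normalised count of 9 members in each arm (log axis), grey for scramble, blue for shRNA 1 and orange for the libraries labelled shRNA 2; bars are 95% intervals, hidden by the symbol where they are small. ANXA6 is highest in all arms, and ANXA2, ANXA5 and S100A10 are lowest in the libraries labelled shRNA 2.

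ANXA4 (chromosome 2, 69644425 to 69827100, plus strand), which assembles on membranes and limits the mobility of lipids and proteins in them, was the 1 member called higher in both comparisons. The reconstructed means were 402 normalised counts in scramble (345 to 469), 602 with shRNA 1 (519 to 698) and 660 in the libraries labelled shRNA 2 (569 to 765). Both hairpin arms lie above scramble and overlap each other. The deposited log2 fold changes were 0.58 ± 0.16 (SE) and 0.71 ± 0.16, with DESeq2 adjusted p-values of 0.00181 and 4.56e-05, in the authors' deposited tables. The difference between the hairpin arms was 0.13 ± 0.15 (SE; 95% interval -0.17 to 0.44).

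ANXA6 (chromosome 5, 151100712 to 151157882, minus strand) has a duplicated annexin core and is the annexin known for its abundance in lymphoid cells, where it acts in endocytosis and cholesterol transport. Its reconstructed means were 13355 normalised counts in scramble (12422 to 14358), 20191 with shRNA 1 (18787 to 21701) and 14864 in the libraries labelled shRNA 2 (13827 to 15979). The shRNA 1 arm stands above the others, which overlap. The authors' deposited tables give log2 fold changes of 0.60 ± 0.08 (SE; DESeq2 adjusted p of 1.3e-13) and 0.15 ± 0.08 (0.114). Recentred on the median gene, the second value became 0.19 and was called, with an adjusted p of 0.0359 in a Wald test recomputed here.

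ANXA11 (chromosome 10, 80150889 to 80205572, minus strand), which tethers RNA granules to lysosomes and binds the calcium sensor PDCD6, showed the same order of arms as ANXA6. The reconstructed means were 7100 normalised counts in scramble (6583 to 7657), 9654 with shRNA 1 (8956 to 10406) and 7317 in the libraries labelled shRNA 2 (6785 to 7891), so that shRNA 1 alone stands apart. Deposited log2 fold changes were 0.44 ± 0.08 (SE; DESeq2 adjusted p of 3.31e-07) and 0.04 ± 0.08 (0.765) in the authors' deposited tables. Differences between the hairpin arms were -0.44 ± 0.08 (SE) for ANXA6 and -0.40 ± 0.08 for ANXA11 on the log2 scale.

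ANXA1 and S100A6 were present at low levels. ANXA1 (chromosome 9, 73151757 to 73170393, plus strand), which glucocorticoids induce and which dampens inflammation through formyl peptide receptors, had reconstructed means of 7.07 normalised counts in scramble (2.74 to 18.3), 43.1 with shRNA 1 (19.0 to 97.8) and 5.40 in the libraries labelled shRNA 2 (2.00 to 14.6). The shRNA 1 interval lies just above the others. For shRNA 1 the authors' deposited table puts ANXA1 at 2.61 ± 0.91 (SE, log2), with an unadjusted Wald p of 0.00414 in DESeq2 and no adjusted p. For shRNA 2 it stood at -0.39 ± 1.02 (SE), and DESeq2 adjusted its p to 0.848 in the authors' deposited table. Adjusted over all genes without the filter on low ones, the p for shRNA 1 was 0.0470, in the Wald test of DESeq2. The T cell markers found, 3 of the 4 listed, had summed reconstructed means of 47.9 normalised counts in scramble, 99.5 with shRNA 1 and 61.6 in the libraries labelled shRNA 2. Most of that sum is CD3E, at 33.2, 84.4 and 53.7 normalised counts in the same order, while CD3G was at 11.5, 7.703 and 4.997 and CD2 at 3.16, 7.32 and 2.95. The epithelial markers found had sums of 35.7, 50.5 and 33.4 normalised counts in that order. Among them EPCAM was at 14.3, 29.9 and 7.18, while KRT8 went the other way at 15.3, 11.4 and 21.0. The part of any of these markers in the ANXA1 result was not tested.

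S100A6 (chromosome 1, 153534599 to 153536244, minus strand), known as calcyclin, had reconstructed means of 45.2 normalised counts in scramble (27.7 to 73.8), 54.4 with shRNA 1 (33.6 to 88.2) and 21.8 in the libraries labelled shRNA 2 (12.8 to 37.2). All 3 intervals overlap. The deposited log2 fold changes were 0.27 ± 0.51 (SE; DESeq2 adjusted p of 0.780) and -1.05 ± 0.53 (0.133), and neither was called in the authors' deposited tables. S100A4 (chromosome 1, 153543613 to 153550136), whose protein binds nonmuscle myosin, is the next S100 gene in the tables beyond S100A6 on that chromosome.

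Set side by side, the hairpin arms differed for 6 of the 7 members with a mean of 50 or more, all lower in the libraries labelled shRNA 2 than with shRNA 1. By this z test, 43.7% of 12977 genes differed, 20.1% higher and 23.7% lower with shRNA 2. The exception was ANXA4. The median difference of the 7 members was -0.44 on the log2 scale, against 0.00 over all genes.

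**Figure D3:**
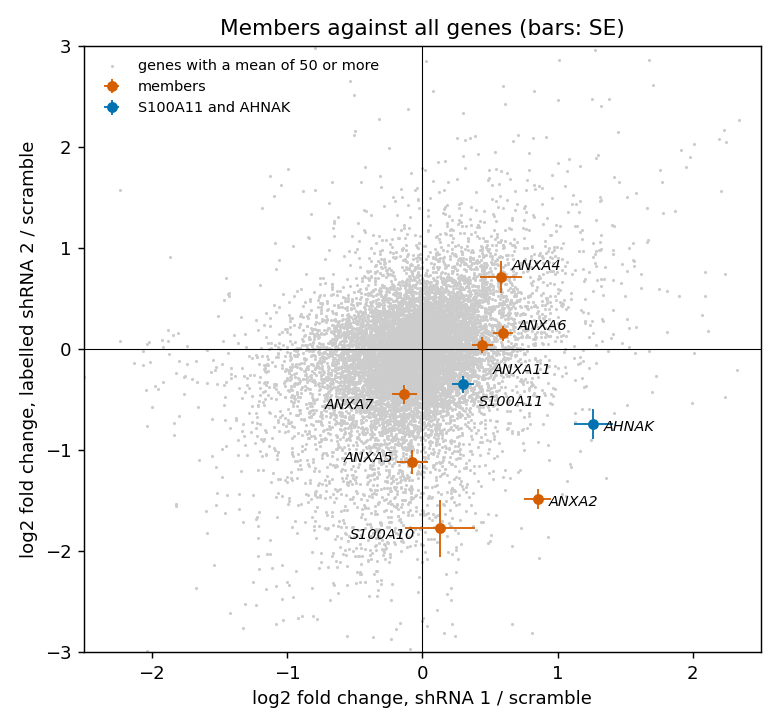
Log2 fold change with shRNA 1 (x axis) against that in the libraries labelled shRNA 2 (y axis), both over the same scramble libraries; orange, 7 members with a mean of 50 or more; blue, S100A11 and AHNAK; grey, 12977 genes with a mean of 50 or more, of which 28 lie outside the axes. Bars are SEs. ANXA2, S100A11 and AHNAK lie in the lower right, called higher with shRNA 1 and lower in the other arm. So were CALU, which is not coloured, and 1.5% of all genes tested in both. S100A10 was not called with shRNA 1.

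The list of annexins, which includes the member annexins, held 13 genes, of which 10 were found and 7 or 8 carried an adjusted p. Outside the members, ANXA9 alone carried one. ANXA9, of an atypical annexin thought not to bind calcium, had log2 fold changes of -0.22 ± 0.23 (SE) and 0.14 ± 0.23 and was called in neither of the authors' deposited tables. ANXA3 and ANXA13, with means of 4.05 and 9.58 normalised counts, carried no adjusted p and so could not be called.

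Of 20 S100 genes listed, S100A10, S100A4 and S100A6 among them, 10 were found and 7 tested, with 2 higher and 0 lower with shRNA 1 and 4 higher and 2 lower in the libraries labelled shRNA 2, per the authors' deposited tables. Over all genes tested the shares were 9.8% and 14.8% with shRNA 1, and 10.9% and 18.1% in the other arm. S100A11, an annexin partner known to bind ANXA1, was far above the S100 members, at 11529 mean normalised counts per kilobase against 154 for S100A10. Its reconstructed means were 6814 normalised counts in scramble (6300 to 7370), 8376 with shRNA 1 (7747 to 9056) and 5354 in the libraries labelled shRNA 2 (4948 to 5794), with no overlap. On the log2 scale S100A11 stood at 0.30 ± 0.08 (SE; DESeq2 adjusted p of 0.00201) and -0.35 ± 0.08 (0.000162) in the authors' deposited tables, the same opposite signs as ANXA2 at a smaller size. Neither call of S100A11 holds where a log2 size of 0.5 is asked for. S100A9, a subunit of calprotectin, was called higher in both of the authors' deposited tables, at 1.72 ± 0.66 and 1.96 ± 0.66 (SE), from a low mean of 28.99 normalised counts. Without the filter on low genes its adjusted p for shRNA 1 was 0.0900, in the Wald test of DESeq2. S100A9 is abundant in myeloid cells, and the 5 myeloid markers had summed reconstructed means of 593 normalised counts in scramble, 511 with shRNA 1 and 719 in the libraries labelled shRNA 2. These markers did not move together: ITGAM was at 21.7, 156 and 88.4 normalised counts in that order, and CD68, the most abundant, at 551, 323 and 607. LYZ was at 13.3, 18.3 and 10.4, CD14 at 4.36, 7.09 and 6.77, and CSF1R at 2.62, 6.43 and 6.24. The part of such markers in the S100A9 result was not tested. S100A1, S100A13 and S100Z were higher in the libraries labelled shRNA 2, at 1.62 ± 0.45, 1.31 ± 0.34 and 0.89 ± 0.28 (SE), and not called with shRNA 1, in the authors' deposited tables. Recentring brought S100A13 to an adjusted p of 0.0472 with shRNA 1, in a Wald test recomputed here on the shifted fold change. S100A1 and S100A13 lie on opposite strands and share 235 exonic bases. No source used here states whether counting used strand, so it is unknown whether reads of the pair can be told apart there. S100A13 also shares 536 exonic bases with AL162258.1 on its own strand, which had a mean of 31.7 normalised counts. S100A1 shares 320 with the antisense gene AL162258.2, which had a mean of 44.3.

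Binding partners gave a mixed picture. Of 30 genes listed, 21 were tested with shRNA 1, with 5 higher and 6 lower and a median log2 fold change of -0.03, and 23 in the libraries labelled shRNA 2, with 2 higher and 8 lower and a median of -0.20, from the authors' deposited tables. All genes tested had 9.8% higher and 14.8% lower with shRNA 1, and 10.9% and 18.1% in the other arm. AHNAK, a giant scaffold that the ANXA2 and S100A10 complex holds at the plasma membrane, had the same opposite signs as ANXA2. It was the 1 partner called in these directions of 21 tested in both, against a share of 1.5% over all genes. Its reconstructed means were 1590 normalised counts in scramble (1383 to 1829), 3815 with shRNA 1 (3327 to 4376) and 953 in the libraries labelled shRNA 2 (827 to 1099), none overlapping. The authors' deposited tables put AHNAK at 1.26 ± 0.14 (SE; DESeq2 adjusted p of 1.49e-16) and -0.74 ± 0.15 (5.02e-06). BSG, a surface glycoprotein of the immunoglobulin family, rose in both (0.91 ± 0.09 and 0.40 ± 0.09, SE, per the authors' deposited tables). EZR, which links membrane proteins to actin, fell in both at -0.68 ± 0.10 and -0.84 ± 0.10 (SE), and the chaperone HSPA8 at -0.27 ± 0.07 and -0.34 ± 0.07, in the authors' deposited tables.

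A further 5 partners were named after their values were seen, 1 for each of several members. HLTF, a chromatin remodeller that binds the ANXA2 and S100A10 complex, was at -0.26 ± 0.14 (SE; not called) and -1.37 ± 0.14 (called) in the authors' deposited tables. PLA2G4A, the cytosolic phospholipase that ANXA1 is known to inhibit, was at 0.04 ± 0.12 and -1.05 ± 0.13 (SE), called only in the second of the authors' deposited tables. CACYBP, named for binding calcyclin, was at 0.00 ± 0.08 and -0.40 ± 0.08 (SE), and MYH9, the myosin bound by S100A4, at -0.17 ± 0.07 and -0.49 ± 0.07, both called only with shRNA 2 in the authors' deposited tables. PDCD6, the calcium sensor that binds ANXA7 and ANXA11, was at 0.25 ± 0.10 and -0.13 ± 0.10 (SE) and was called in neither of the authors' deposited tables. Recentred on the median gene, PDCD6 was called higher with shRNA 1, at 0.29 with an adjusted p of 0.0186 in a recomputed Wald test.

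Processes in which annexins take part were covered by 3 further lists. From each of them up to 4 genes are named, picked for the lowest larger p of the 2 comparisons. Calls of these genes in both comparisons therefore follow largely from that choice. Of the membrane repair genes, 1 was higher and 5 lower of 21 tested with shRNA 1, and 2 were higher and 3 lower of 21 in the libraries labelled shRNA 2, with medians of -0.11 and 0.01, from the authors' deposited tables. Called in either direction were 24.6% of all genes with shRNA 1 and 29% in the other arm, so the share of repair genes called is near that of all genes. The caveolin genes CAV1 and CAV2 fell in both, CAV1 at -0.51 ± 0.11 and -2.00 ± 0.11 (SE) and CAV2 at -0.45 ± 0.15 and -4.27 ± 0.19, in the authors' deposited tables. EHD1, an endocytic recycling ATPase, rose in both at 0.37 ± 0.10 and 0.85 ± 0.10 (SE) in the authors' deposited tables. EHD2, at a mean of 9.51 normalised counts, carried no adjusted p in either of the authors' deposited tables.

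Of the genes that move or make phosphatidylserine, the lipid that ANXA5 binds, 1 was higher and 6 lower of 19 tested with shRNA 1, and 2 were higher and 5 lower of 22 in the libraries labelled shRNA 2, with medians of -0.17 and -0.21, from the authors' deposited tables. Set beside these counts, all genes had shares of 9.8% (higher) and 14.8% (lower) with shRNA 1, and of 10.9% and 18.1% in the other arm. The P4-type ATPase gene ATP8B2 fell in both at -0.52 ± 0.08 and -0.50 ± 0.08 (SE), as did its relative ATP10D at -0.60 ± 0.17 and -0.43 ± 0.17, in the authors' deposited tables. The second call of ATP10D was lost without the filter on low genes (adjusted p of 0.0878, Wald test of DESeq2). It was also lost on recentring (0.0763, Wald test recomputed here on the shifted fold change). PTDSS1, a phosphatidylserine synthase, was called with shRNA 1 at -0.34 ± 0.12 (SE) and not with shRNA 2 at -0.22 ± 0.12, and TMEM41B, an ER scramblase, was at -0.31 ± 0.15 and -0.34 ± 0.15 and called in neither, in the authors' deposited tables.

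EF-hand calcium sensors of other families gave 4 higher and 3 lower of 24 tested with shRNA 1, and 1 higher and 9 lower of 25 in the libraries labelled shRNA 2, with medians of 0.06 and -0.15, from the authors' deposited tables. For all genes the shares higher and lower were 9.8% and 14.8% with shRNA 1, and 10.9% and 18.1% in the other arm. CALM3, a calmodulin gene, fell in both at -0.72 ± 0.11 and -1.02 ± 0.11 (SE), and the ER calcium sensor STIM1 at -0.25 ± 0.09 and -0.24 ± 0.09, in the authors' deposited tables; the STIM1 calls were lost on recentring (adjusted p of 0.0597 and 0.0709). CALU, a calcium-binding protein of the secretory pathway, had opposite signs at 0.23 ± 0.09 and -0.31 ± 0.09 (SE) per the authors' deposited tables; its first adjusted p became 0.0921 when no filter on low genes was used. SPARC, a secreted matrix protein, was not called with shRNA 1 at 0.32 ± 0.15 (SE) and fell in the libraries labelled shRNA 2 at -1.42 ± 0.15, in the authors' deposited tables.

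**Figure D4:**
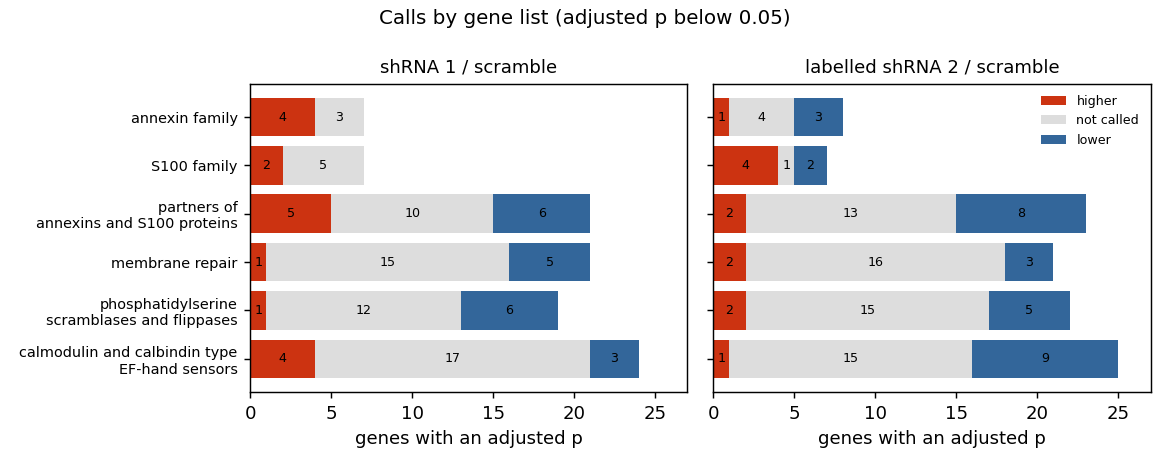
Number of genes with an adjusted p in 6 gene lists, called higher (red), not called (grey) or called lower (blue), with shRNA 1 on the left and in the libraries labelled shRNA 2 on the right; the first 2 lists include the members. With shRNA 1 no annexin or S100 gene was called lower, while in the libraries labelled shRNA 2 there were 3 annexins and 2 S100 genes called lower.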

How the data were processed

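Poly(A) RNA of MM.1S cells was sequenced in 2 libraries each of scramble, shRNA 1 and shRNA 2, grouped by the labels. Salmon 0.12.0, DESeq2 1.24.0 and GRCh38 are named in the submitters' processing notes; no source used here gives their settings. Salmon shares out ambiguous reads by estimation. Per the file headers, each deposited table holds a signal (the mean of normalised counts, identical in both), a log2 fold change with its SE, a Wald score, and p-values with adjusted p-values, which the authors leave blank for low genes (lowest mean with one: 26.8 for shRNA 1, 11.8 for shRNA 2). The main test was the authors' own DESeq2 Wald test. Without per-library values, no depth, replicate SD or count test was computed.

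Arm means and dispersion were solved from the mean, both fold changes and both SEs. Fold changes are read as shRNA over scramble: over 1209 changed genes the dispersions from the tables differed by a median of 0.000230 as coded, and by 0.00235 to 0.00515 with either or both signs turned. The hairpin arms were compared by a two-sided z on the difference of fold changes, with an SE that leaves out scramble variance, Benjamini-Hochberg adjusted over 12977 genes with a mean of 50 or more. All 33095 identifiers occur in GENCODE 29, which gave coordinates and lengths; promoters are from RefSeq (GRCh38.p14). Protein sequences are not used here. Python 3.11.15 and scipy 1.17.1 were used.

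Named genes are the members, IRF3, all other tested annexin and S100 genes, the ANXA2 pseudogenes, and up to 4 genes of each further list with the lowest larger p, plus the 5 partners said to be chosen later. The members and lists were chosen with earlier results of these data known. Alternatives were other thresholds, a log2 fold change minimum of 0.5, recentring on the median gene, no filter on low genes, the summed SE for the difference and another transcript length.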

Additional observations from a re-analysis of the deposited data

Results flagged for a closer look

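The libraries labelled shRNA 2 differed from those of shRNA 1 for 21 of the 33 named genes tested (63.6%), by the z test adjusted over all genes with a mean of 50 or more; 43.7% of all such genes differed. The named genes were chosen with these values known, and IRF3 was not called lower in the libraries labelled shRNA 2. Values are log2 differences, labelled shRNA 2 minus shRNA 1, computed from the deposited fold changes.

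Among the members, ANXA2 differed by -2.34 ± 0.10 (SE; z test adjusted p of 1.94e-119), S100A10 by -1.90 ± 0.28 and ANXA5 by -1.04 ± 0.12. Smaller differences were -0.44 for ANXA6, -0.40 for ANXA11 and -0.31 for ANXA7.

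Other S100 genes and partners lower in the libraries labelled shRNA 2 than with shRNA 1 were S100A11 (-0.65), AHNAK (-2.00), HLTF (-1.11), PLA2G4A (-1.09), BSG (-0.51), CACYBP (-0.40), PDCD6 (-0.38) and MYH9 (-0.31). From the remaining lists, CAV2 differed by -3.83, SPARC by -1.74, CAV1 by -1.49, CALU by -0.54 and CALM3 by -0.31. The CALM3 difference (z test adjusted p of 0.0158) is lost with the summed SE, at an adjusted p of 0.137, as is that of ANXA7, at 0.0581. EHD1 was higher in the libraries labelled shRNA 2 by 0.48, and IRF3, the targeted gene, by 1.35.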

How the results depend on the processing

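No call on a named gene changed sign under the alternatives run, which could hardly have changed one. Only recentring alters fold changes, and the median gene stood at only -0.04 log2 against scramble with either hairpin. Members called numbered 4 with shRNA 1 (3 to 5 under the alternatives), 5 with shRNA 2 (4 to 6) and 6 between the hairpin arms (5 to 7). With a log2 minimum of 0.5, ANXA11 left the calls of shRNA 1 and ANXA7 those of shRNA 2; both calls of S100A11 ended too. ANXA7 and CALM3 also left the difference between arms with the summed SE (adjusted p of 0.0581 and 0.137, z test), and CALM3 left it at a threshold of 0.01. ANXA1 entered the calls of shRNA 1 and of the difference without the filter on low genes (adjusted p of 0.0470 in the Wald test of DESeq2 and 0.0127 in the z test). The ratio of ANXA2 to S100A10 per kilobase, 16.6 over all libraries with the longest coding transcript, was 31.4 with the median length. Over all genes, the log2 minimum lowered the calls from 3571 to 2002 with shRNA 1 and from 4939 to 3191 with shRNA 2, and the summed SE lowered those of the difference from 5676 to 3499. No paired analysis was possible because single libraries have no values in these tables; for the same reason leaving out each library was not run. The widest intervals are those of S100A4, ANXA1 and S100A6, which have the lowest means of the members (0.596, 18.5 and 40.5 normalised counts).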
